A study of Mus musculus with 6 samples.

Results

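A set of 10 genes of membrane handling, calcium binding and adhesion that mark effector and memory T cells were followed in CD4 T cells of the mouse lung: S100a4, S100a6, S100a10, S100a11 and S100a13 of the S100 family, Anxa1 and Anxa2 of the annexins, Lgals1 and Lgals3 of the galectins, and Cd44. They were chosen by name, with earlier results of these data known. All 10 were measured among 22180 genes, and each had a single probe set carrying only its own symbol. Cells came from the lungs of wild-type (WT) mice sensitised and challenged with house dust mite (HDM), an allergen that provokes allergic airway inflammation, or from the lungs of WT mice given PBS, the saline vehicle. From digested lungs of both groups, CD45+ CD4+ cells were collected that lacked CD11b and the macrophage protein encoded by Adgre1, a gate that does not separate naive, effector, memory and regulatory T cells. There were 3 HDM and 3 PBS samples with 1 whole-transcript Affymetrix array each, titled as biological replicates. The labels give no strain, age, dose, treatment days or number of mice per sample, so p-values rest on the spread between samples, which may be technical.

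S100 proteins are small calcium-binding proteins that usually work as dimers and change the shape of their partner proteins, among them annexins and myosin. Annexins bind acidic phospholipids of membranes when calcium is present and help to organise and repair membranes. Galectins bind galactose-containing sugars on surface glycoproteins and cross-link receptors, and CD44 is the adhesion receptor for hyaluronan, whose high surface level separates antigen-experienced from naive mouse T cells. In bulk RNA of a sorted population, a larger share of cells with a transcript and more transcript per cell cannot be told apart.

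Of these genes 7 rose with HDM, S100a4, S100a6, S100a10, S100a11, Lgals1, Lgals3 and Cd44, by between 1.31-fold (S100a10) and 2.60-fold (S100a6). None fell, and S100a13, Anxa1 and Anxa2 did not pass limma's test at an adjusted p below 0.05. The median log2 difference of the 10 genes, HDM minus PBS, was 0.70, beside −0.0063 over all 22180 genes. Of these 10 genes 7 were called higher, against 2.39% of all genes tested and 3.95% called in either direction. The 10 genes were bright, with a median signal at percentile 85.55 of all genes, so shares over all genes are not a background matched for signal. For 9 of the 10 genes all 3 HDM values lay above all 3 PBS values, a separation in that direction found for 10.8% of all genes. With the replicate number as a block in the fit, which called 5.95% of all genes higher, 9 of the 10 were called higher, Anxa1 and Anxa2 joining the others. The count of 7 became 4 without PBS replicate 1 and 4 without PBS replicate 2, while the 531 called higher over all genes became 192 and 177. Without HDM replicate 3 the count was 8, and 845 over all genes.

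**Figure D1:**
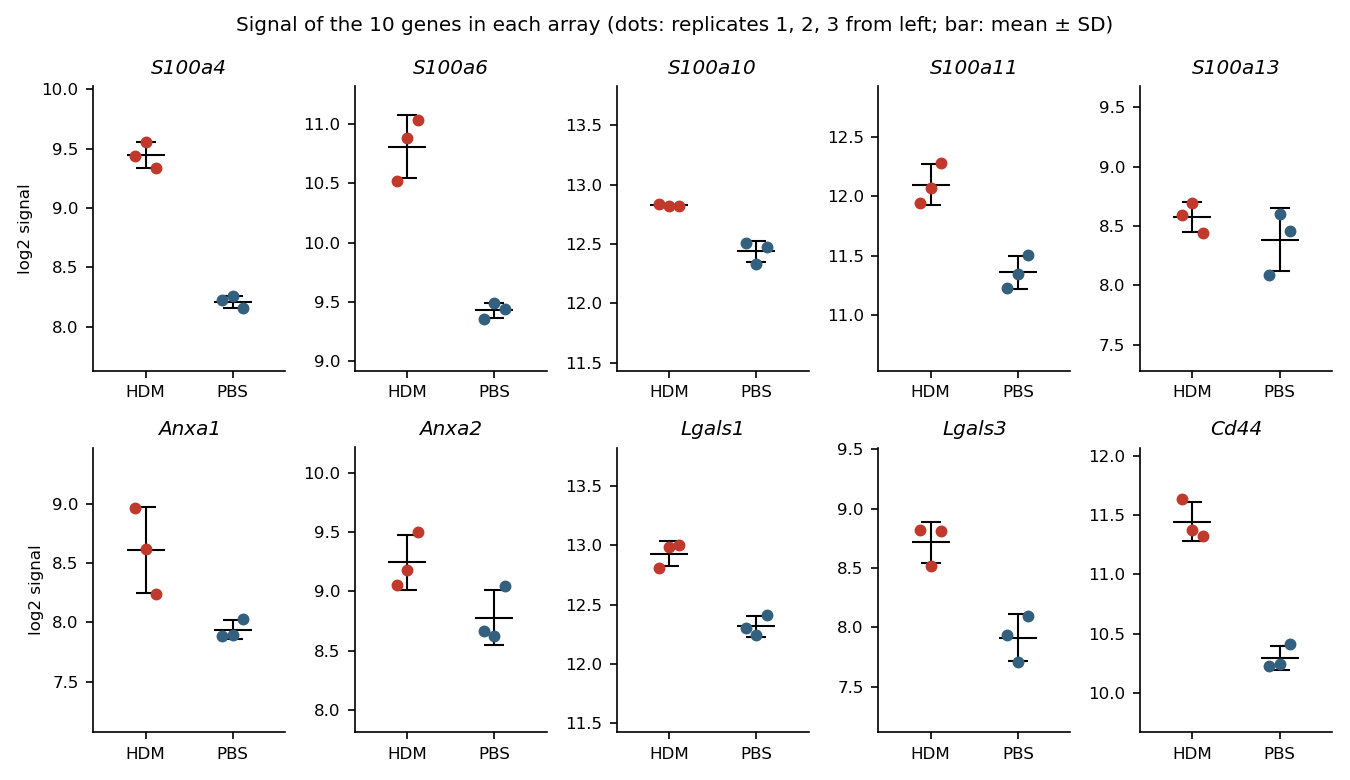
Signal of each of the 10 genes in each array, on the log2 scale (y axis, a span of equal height in every panel), with HDM left of PBS; dots are replicates 1, 2 and 3 from left and the bar is the mean ± SD (n = 3). The HDM dots lie above every PBS dot in each panel except that of S100a13, where the groups overlap.

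S100a4, which binds non-muscle myosin and is linked to cell motility, had log2 signals of 9.43, 9.56 and 9.34 in HDM arrays, against 8.22, 8.25 and 8.16 in PBS arrays. The groups were more than 1 log2 unit apart and each varied by little (SD 0.11 in HDM and 0.051 in PBS, n = 3 each). It rose by 1.23 ± 0.10 SE on the log2 scale (2.35-fold, adjusted p = 0.00156). S100a6, also called calcyclin, had log2 signals of 10.52, 10.88 and 11.03 in HDM arrays, against 9.36, 9.49 and 9.44 in PBS arrays. Its HDM arrays differed more among themselves (SD 0.26) than its PBS arrays (SD 0.066), and all stood above them. The log2 difference was 1.38 ± 0.13 SE (2.60-fold, adjusted p = 0.00274), and it placed the gene at number 83 of 22180 from the top by size of rise, with S100a4 at number 114. Both calls were kept in all 17 other settings tried.

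S100a4 and S100a6 lie in the S100 cluster on chromosome 3 with only S100a5 between them, in RefSeq's gene order for the mouse assembly GRCm38.p6. Their promoter windows, 250 bases before to 50 after the start, are shown because the genes with the largest rise are near neighbours, and those of S100a11 and Anxa2 because they held the letters of an AP-1 motif, the binding sequence of a factor induced by T cell activation. Capitals mark TGANTCA, searched on both strands. All are from RefSeq, build GRCm38.p6, read 5′ to 3′ along the strand of the gene:
S100a4 (chr3:90603520-90603819, + strand): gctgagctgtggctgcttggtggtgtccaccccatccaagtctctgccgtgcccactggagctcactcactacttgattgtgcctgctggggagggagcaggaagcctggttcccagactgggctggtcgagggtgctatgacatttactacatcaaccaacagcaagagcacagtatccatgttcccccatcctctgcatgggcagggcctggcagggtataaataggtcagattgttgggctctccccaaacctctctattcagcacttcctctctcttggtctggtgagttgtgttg
S100a6 (chr3:90612644-90612943, + strand): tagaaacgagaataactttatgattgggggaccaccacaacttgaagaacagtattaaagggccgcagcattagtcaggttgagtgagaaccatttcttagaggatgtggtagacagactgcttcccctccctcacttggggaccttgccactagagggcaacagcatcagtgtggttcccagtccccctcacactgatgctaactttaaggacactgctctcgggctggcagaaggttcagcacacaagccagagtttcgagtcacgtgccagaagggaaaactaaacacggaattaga
S100a11 (chr3:93520246-93520545, + strand): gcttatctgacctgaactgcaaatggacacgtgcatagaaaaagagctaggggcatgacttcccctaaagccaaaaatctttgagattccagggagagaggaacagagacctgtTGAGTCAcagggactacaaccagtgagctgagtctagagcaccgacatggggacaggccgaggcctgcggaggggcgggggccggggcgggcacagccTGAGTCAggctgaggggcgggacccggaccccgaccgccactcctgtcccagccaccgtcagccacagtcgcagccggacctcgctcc
Anxa2 (chr9:69453433-69453732, + strand): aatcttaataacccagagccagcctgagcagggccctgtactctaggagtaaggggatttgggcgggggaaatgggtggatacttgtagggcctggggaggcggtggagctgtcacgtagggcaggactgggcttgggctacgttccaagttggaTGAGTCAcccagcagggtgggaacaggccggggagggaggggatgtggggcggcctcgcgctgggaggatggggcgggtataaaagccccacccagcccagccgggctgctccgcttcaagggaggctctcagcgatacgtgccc
Windows were read for 8 of the 10 genes, all but S100a10 and Lgals1. TGANTCA was in 2 of the 8, and in 7.81% of the 32851 windows of all genes. In S100a11 it began 136 and 38 bases before the start, and in Anxa2 95 bases before it. The STAT motif TTCNNNGAA was in 0 of the 8 and in 8.3% of all. The GC box GGGCGG, bound by SP and KLF factors, was in 4 of the 8, those of S100a11, Anxa2, Lgals3 and Cd44, and in 35.7% of all. No match of one motif in these 8 windows overlapped a match of another. These are matches of letters, and binding was not measured.

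S100a11, a partner of annexin A1, had log2 signals of 11.94, 12.07 and 12.28 in HDM arrays, against 11.23, 11.34 and 11.51 in PBS arrays. The array numbered 3 was the highest of each group, and the groups did not overlap. The log2 difference was 0.74 ± 0.11 SE (1.67-fold, adjusted p = 0.0112), and it lost the call without HDM replicate 2, PBS replicate 1 or PBS replicate 2 (adjusted p of up to 0.068). S100a10, also called p11, which holds annexin A2 in a complex and does not bind calcium, had log2 signals of 12.83, 12.82 and 12.82 in HDM arrays, against 12.51, 12.33 and 12.47 in PBS arrays. The HDM arrays were nearly identical (SD 0.0081), and the lowest of them stood above every PBS array. The rise in log2 signal was small, 0.39 ± 0.062 SE (1.31-fold, adjusted p = 0.0168), and lost the call without HDM replicate 1, HDM replicate 2, PBS replicate 1 or PBS replicate 2 (adjusted p of up to 0.0808). The 95% interval of the log2 difference was 0.24 to 0.53 for S100a10 and 0.49 to 0.99 for S100a11, both below that of S100a4, 1.01 to 1.45.

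S100a13, which takes part in the unconventional secretion of some growth factors and cytokines, was the exception among these S100 genes. Its log2 signals were 8.59, 8.70 and 8.44 in HDM arrays, against 8.09, 8.60 and 8.46 in PBS arrays. The groups overlapped, with PBS replicate 1 the lowest of all. The log2 difference of 0.19 ± 0.15 SE did not pass (adjusted p = 0.574, 95% interval −0.15 to 0.53), and between arrays of the same number it was 0.50, 0.094 and −0.022. The upper end of that interval lay below the lower ends for S100a4 and S100a6, 1.01 and 1.07.

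The other S100 genes gave no call. Of 11 that were listed, 0 were higher and 0 lower by limma, where 2.39% and 1.56% of all genes were. An unadjusted p below 0.05 was found for 2 of them, as for 17.8% of all genes, and their median log2 difference was −0.041. With the block 1 was higher, beside 5.95% of all genes. These 11 were dimmer than the 10 genes, with a median signal at percentile 34.85 of all genes against 85.55. S100a2 and S100a7l2, measured but not listed, had log2 differences of 0.21 and 0.12 that did not pass limma's test (adjusted p = 0.418 and 0.606). S100a1, the neighbour of S100a13, had log2 signals of 7.38, 7.42 and 7.80 in HDM arrays, against 6.90, 7.10 and 7.36 in PBS arrays. Its log2 difference of 0.42 ± 0.16 SE did not pass (adjusted p = 0.21, and 0.0245 with the replicate block), and as the RefSeq models of S100a1 and S100a13 overlap and probe positions were not at hand, their signals may not be fully separate. S100a8, a subunit of the calprotectin pair that neutrophils hold in large amounts, had log2 signals of 5.43, 5.87 and 6.79 in HDM arrays, against 5.99, 6.06 and 6.94 in PBS arrays. The array numbered 3 was the highest in each group, and the log2 difference was −0.30 ± 0.37 SE (adjusted p = 0.756).

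Along chromosome 3 the genes that rose stood at 2 places. From S100a1 to S100a10 RefSeq lists 70 protein-coding genes in GRCm38.p6, 15 of them S100 genes, all measured. S100a4 and S100a6 are number 7 and number 9 in that order, and S100a5 between them had a log2 difference of −0.041 ± 0.11 SE (adjusted p = 0.902). S100a11 and S100a10 are numbers 69 and 70, past 54 genes that follow S100a7l2, most of them of the epidermal differentiation complex, which builds the cornified layer of skin. Of the 55 genes in the span that are not S100 genes, 46 were measured and 9 were not analysed here. Of the 46, 0 were called by limma, where 3.95% of all genes were called in either direction, and 5 had an unadjusted p below 0.05 (17.8% over all genes). The log2 differences ran from −0.14 to 0.55 with a median of 0.063. Their mean log2 signals in HDM arrays ran from 3.45 (Lce1a1) to 8.69 (Lce3c), where the medians of those arrays were 6.58 to 6.64. Whether these genes are expressed in the sorted cells was not tested.

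**Figure D2:**
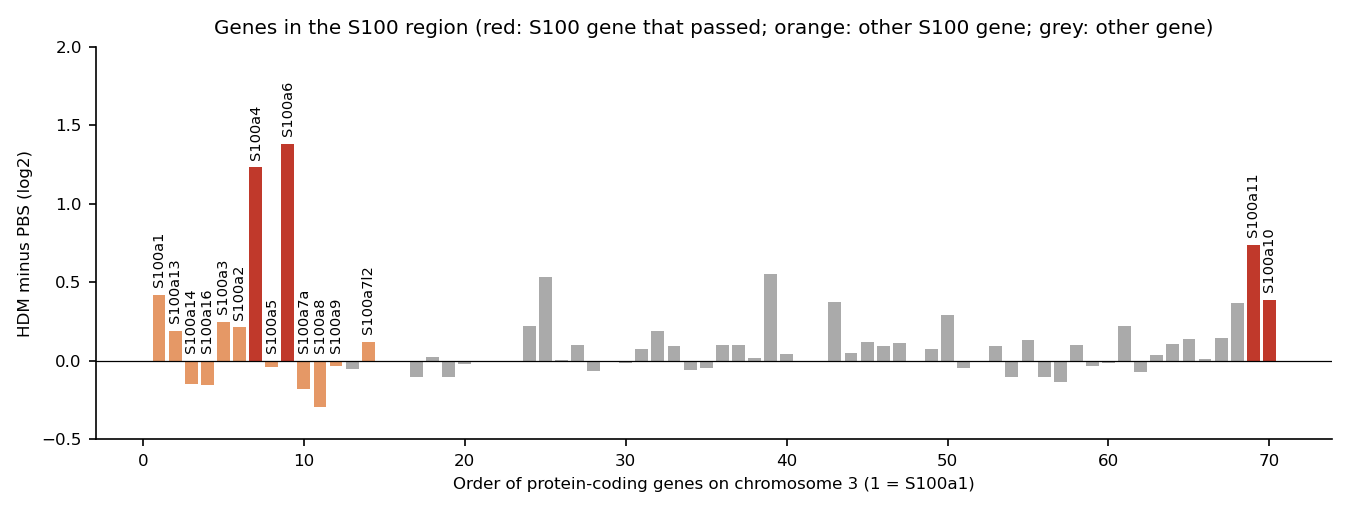
Log2 difference, HDM minus PBS (y axis), of the protein-coding genes from S100a1 to S100a10 in their order on chromosome 3 (x axis, order number, not distance); red bars are S100 genes that passed the test, orange bars other S100 genes, grey bars other genes, and positions with no bar were not analysed here. S100a4 and S100a6 rise to 1.23 and 1.38 at numbers 7 and 9, S100a11 and S100a10 to 0.74 and 0.39 at numbers 69 and 70.

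Anxa1, an annexin known as a mediator of glucocorticoid action and a modulator of T cell receptor signals, had log2 signals of 8.97, 8.61 and 8.24 in HDM arrays, against 7.89, 7.90 and 8.03 in PBS arrays. The groups did not overlap, but the HDM arrays ranged widely (SD 0.36) beside the PBS arrays (SD 0.079). The log2 difference of 0.67 ± 0.17 SE (1.59-fold) did not pass (adjusted p = 0.0839), and passed with the replicate block (adjusted p = 0.033) and without HDM replicate 3 (difference 0.85, adjusted p = 0.0102). Between arrays of the same number the difference was 1.08, 0.72 and 0.21. Anxa2, which joins S100a10 at the inner face of the plasma membrane, had log2 signals of 9.05, 9.18 and 9.50 in HDM arrays, against 8.66, 8.62 and 9.05 in PBS arrays. The lowest HDM array stood just above the highest PBS array, and the arrays numbered 3 were the highest of their groups. The log2 difference of 0.47 ± 0.16 SE (1.38-fold) did not pass (adjusted p = 0.164). With the replicate block it did (adjusted p = 0.0103). The differences between arrays of the same number were 0.39, 0.56 and 0.45.

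Among the other annexins, 1 of 9 measured was higher and 0 were lower, where 2.39% and 1.56% of all genes were called. The median log2 difference was 0.22. The gene that rose was Anxa4, an annexin of secretory and epithelial membranes. Its log2 signals were 8.73, 8.64 and 8.33 in HDM arrays, against 7.23, 7.27 and 7.26 in PBS arrays. Every HDM array was more than 1 log2 unit above every PBS array, and the log2 difference of 1.31 ± 0.12 SE (2.49-fold, adjusted p = 0.00249) kept its call in all 17 other settings. Its 95% interval, 1.04 to 1.59, lay above that of Anxa2 (0.10 to 0.83) and overlapped that of Anxa1 (0.27 to 1.07). With the block 2 of the 9 were called higher, Anxa4 and Anxa5, where 5.95% of all genes were. Anxa5, the annexin used to stain dying cells (0.25 ± 0.079, adjusted p = 0.147, and 0.0279 with the block), was named after its values were seen. The probe sets of Anxa11 carry several symbols and were not read.

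**Figure D3:**
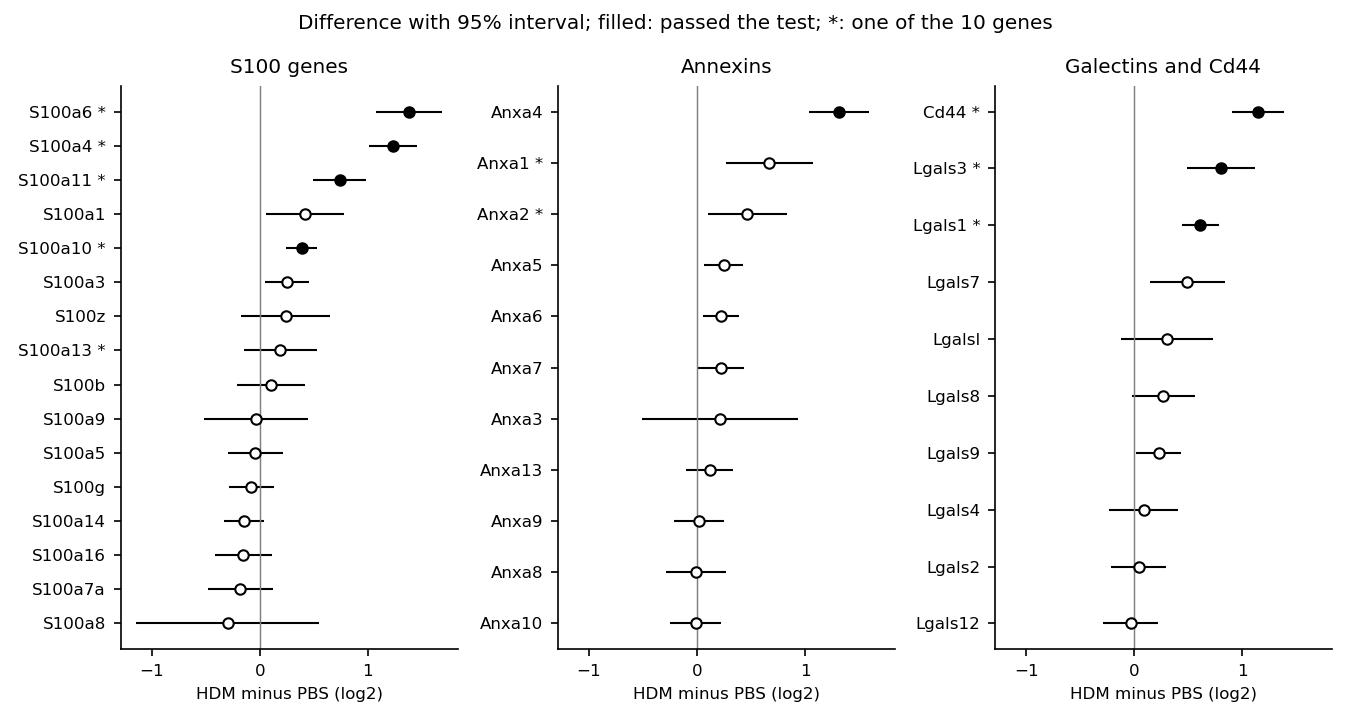
Log2 difference, HDM minus PBS, with its 95% interval from limma (x axis), for the listed and measured S100 genes, annexins and galectins and for Cd44. S100a2 and S100a7l2, measured but not listed, are not shown. Filled circles passed the test and asterisks mark the 10 genes. Anxa4 is the only filled circle without an asterisk, and among the genes with an asterisk S100a13, Anxa1 and Anxa2 are open.

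Lgals1 encodes galectin 1, a secreted lectin of activated and regulatory T cells that can promote death of activated T cells. Its log2 signals were 12.805, 12.985 and 12.997 in HDM arrays, against 12.300, 12.240 and 12.409 in PBS arrays. The groups stood apart, with SDs of 0.11 in HDM and 0.086 in PBS. The rise in log2 signal was 0.61 ± 0.075 SE (1.53-fold, adjusted p = 0.00641), and the call was kept in all 17 other settings. Lgals3 encodes galectin 3, which cross-links surface glycoproteins and is also a classical macrophage antigen. Its log2 signals were 8.82, 8.52 and 8.81 in HDM arrays, against 7.94, 7.71 and 8.10 in PBS arrays. Replicate 2 was the lowest of each group, and the groups did not overlap. The log2 difference was 0.80 ± 0.14 SE (1.74-fold, adjusted p = 0.0202), and lost the call without HDM replicate 1, PBS replicate 1 or PBS replicate 2 (adjusted p of up to 0.0953).

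The other galectins gave 0 calls by limma in either direction among 7 measured, where 3.95% of all genes were called. Of the 7, 2 had an unadjusted p below 0.05 (17.8% over all genes), and the median log2 difference was 0.23. Lgals7, a galectin of stratified epithelia, had the largest log2 difference, 0.49 ± 0.15 SE (adjusted p = 0.13), which passed with the block (adjusted p = 0.0351) and without HDM replicate 3 (0.66, adjusted p = 0.0125). The galectin-like Lgalsl differed by 0.31 ± 0.18 SE (adjusted p = 0.459). Lgals6 was not analysed here. Over the other 11 S100 genes, 9 annexins and 7 galectins that were listed and measured, 1 was called higher, and 4 with the replicate block. Over all genes 2.39% were called higher, and 5.95% with the block.

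Cd44 had log2 signals of 11.63, 11.37 and 11.33 in HDM arrays, against 10.23, 10.24 and 10.41 in PBS arrays. Every HDM array stood above every PBS array, and PBS replicates 1 and 2 were nearly equal. The log2 difference was 1.15 ± 0.10 SE (2.22-fold, adjusted p = 0.00249), with a 95% interval of 0.91 to 1.39, and the call was kept in all 17 other settings. Between arrays of the same number the difference was 1.41, 1.13 and 0.91. Of the genes of CD44's ligands, cytoskeletal linkers and hyaluronan enzymes, 0 of 15 measured were called by limma in either direction, beside 3.95% of all genes. Of the 15, 3 had an unadjusted p below 0.05, beside 17.8% of all genes (median log2 difference −0.035). With the block 1 was higher and 2 were lower, where 5.95% and 6.01% of all genes were called. The 2 with the largest differences were Lyve1, the hyaluronan receptor of lymphatic endothelium (−0.67 ± 0.35 SE, adjusted p = 0.39, and 0.00983 with the block), and Ezr, the linker ezrin between membrane proteins and actin. Ezr had log2 signals of 11.37, 11.28 and 11.80 in HDM arrays, against 11.89, 11.88 and 12.19 in PBS arrays. The groups did not overlap, and the log2 difference of −0.50 ± 0.15 SE did not pass (adjusted p = 0.117), but passed with the block (0.00312) and without HDM replicate 3 (adjusted p = 0.0131). The gene higher with the block was Nf2, which encodes merlin, a relative of ezrin that restrains growth signals (0.46 ± 0.13 SE, adjusted p = 0.1, and 0.00928 with the block), named after its values were seen. Its 3 HDM values lay above its 3 PBS values. Has2, a hyaluronan synthase, named after its values were seen, differed by −0.0014 ± 0.14 SE. Spp1, Cd74 and Hyal1 were not analysed here.

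Among receptors and binding partners of the S100, annexin and galectin proteins, 4 of 16 measured rose and 0 fell, where 2.39% of all genes were called higher and 1.56% lower. The median log2 difference was 0.15. With the block 6 were higher and 1 lower (5.95% and 6.01% over all genes). Ahnak, the very large scaffold protein that binds the complex of S100a10 and annexin A2, had log2 signals of 11.33, 11.22 and 11.21 in HDM arrays, against 10.45, 10.44 and 10.50 in PBS arrays. Its groups stood far apart for their spread, and the log2 difference was 0.79 ± 0.072 SE (1.73-fold, adjusted p = 0.00249), kept in all 17 other settings. Thus of the 3 genes of that complex S100a10 and Ahnak passed, and Anxa2 passed with the block. Havcr2, which encodes TIM-3, a receptor reported to bind galectin 9, rose by 1.83 ± 0.32 SE (adjusted p = 0.0224) and lost the call without HDM replicate 2, PBS replicate 1 or PBS replicate 2 (adjusted p of up to 0.112). Plscr1, a phospholipid scramblase, rose by 0.89 ± 0.13 SE (adjusted p = 0.0105, and 0.0535 without HDM replicate 1). Lgals3bp, a secreted glycoprotein that binds galectins, had a difference of 0.51 ± 0.11 SE, close to the threshold (adjusted p = 0.0452), and leaving out any array except PBS replicate 3 ended the call (adjusted p of up to 0.179). It also lost the call with eBayes without a trend, with averaged probe sets and with all probe sets tested together. The genes that joined with the block, named after their values were seen, were Mgat5, the enzyme that branches N-glycans bound by galectin 3 (0.49 ± 0.15 SE, adjusted p = 0.123, and 0.0192 with the block), Itgb1, the integrin beta 1 chain (0.28 ± 0.12 SE, adjusted p = 0.255, and 0.0245 with the block), and, lower, Cd7. Cd7, a T cell surface receptor of galectin 1 known from human cells, had log2 signals of 9.36, 9.65 and 10.26 in HDM arrays, against 10.46, 10.58 and 10.81 in PBS arrays. The groups did not overlap, and the log2 difference was −0.86 ± 0.22 SE (adjusted p = 0.0753, and 0.00348 with the block).

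Other genes of the effector memory programme and genes of naive T cells were read from lists chosen with earlier results of these data known. Both lists were bright, with a median signal at percentiles 95.99 and 98.27 of all genes. Shares over all genes are therefore not a background matched for signal. Of 23 other genes known to be high in effector memory T cells, 7 were higher, 0 were lower and 16 did not pass, against 2.39% of all genes called higher. With the replicate block 18 were higher, where 5.95% of all genes were called. The median log2 difference was 0.48. Glrx, the redox enzyme glutaredoxin, rose by 1.17 ± 0.23 SE, Capg, an actin filament capping protein, by 1.00 ± 0.12 SE, Ctla2a, a cathepsin inhibitor, by 0.94 ± 0.17 SE, and Casp1, the inflammasome protease, by 0.86 ± 0.17 SE. Plp2, a small membrane protein of unclear role in T cells, rose by 0.77 ± 0.077 SE and Tagln2, an actin-bundling protein, by 0.54 ± 0.097 SE (adjusted p between 0.00309 and 0.0358 for these genes). The remaining gene was Vim, the filament protein vimentin (0.48 ± 0.053 SE, adjusted p = 0.00417), outside the naming rule. Capg and Plp2 kept the call in all 17 other settings. Glrx and Casp1 lost it when HDM replicate 2 or any single PBS array was omitted, Casp1 also without HDM replicate 1, and Ctla2a and Tagln2 when any single array numbered 1 or 2 was omitted (adjusted p of up to 0.14, 0.129, 0.115 and 0.128). Glrx and Casp1 also lost it with all probe sets tested together, and Tagln2 with averaged probe sets. Among genes that naive T cells express highly, 7 of 8 measured were lower and 0 higher, with 1.56% of all genes called lower, and 8 were lower with the block (6.01% over all genes). Dapl1, Klf2, Satb1, Lef1, S1pr1 and Ccr7 had log2 differences between −1.01 (Dapl1) and −0.66 (Ccr7), and Dapl1 and Lef1 kept the call in all 17 other settings. Klf2 lost it when any single array numbered 1 or 2 was omitted, Satb1 without HDM replicate 1, PBS replicate 1 or PBS replicate 2, and S1pr1 and Ccr7 when any single array except HDM replicate 3 was omitted (adjusted p of up to 0.157). Ccr7 also lost it with eBayes without a trend and with all probe sets tested together. Tcf7 was not analysed here.

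The genes whose pattern over the 6 arrays lay nearest to the mean pattern of the 10 genes were Acot11, a thioesterase of fatty acyl-CoA, Plp2, Ahnak, Ctsb, the lysosomal protease cathepsin B, and Lpxn, the adhesion adaptor leupaxin. Predicted genes, small RNAs and immunoglobulin and T cell receptor segments were left out of this search. The measure was the Euclidean distance between log2 values after each gene's PBS mean was subtracted, and these 5 lay between 0.0998 and 0.171. By the same measure the 10 genes themselves lay between 0.246 (S100a11) and 1.14 (S100a6) from their mean. Cd44 and S100a4 were each other's nearest among the 10, at 0.375. S100a11 and Lgals1 were each other's nearest, too, at 0.297. All 5 were higher by limma, with log2 differences between 0.70 and 0.83, which follows from how they were picked.

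Several of these genes are also strongly expressed in macrophages, granulocytes or lining cells, so markers of other cells were read beside them. T cell markers stayed high in all arrays: the mean log2 signal of 6 measured genes was 12.10 to 12.24 in HDM arrays and 12.01 to 12.06 in PBS arrays, groups that did not overlap. By limma 0 of 6 were called in either direction, where 3.95% of all genes were, with 2 at an unadjusted p below 0.05 (17.8% over all genes). For 2 of the 6, all 3 HDM values lay above all 3 PBS values, beside 10.8% of all genes. Cd3d and Cd3g differed by 0.22 ± 0.13 and 0.19 ± 0.062 SE (adjusted p = 0.462 and 0.151), and with the block Cd3g (0.0308) and Cd5 (0.188 ± 0.061 SE, adjusted p = 0.15, and 0.0458 with the block) were higher. For 14 macrophage and monocyte markers the mean log2 signal was 7.94 to 8.33 in HDM arrays and 7.63 to 7.88 in PBS arrays, groups that did not overlap. That mean includes Chil3, the largest difference of the list, and the median log2 difference was 0.34. All 3 HDM values lay above all 3 PBS values for 3 of the 14, beside 10.8% of all genes. Of the 14 differences 11 were above 0. Among the others were Marco and Cd14 (−0.18 and −0.14, adjusted p = 0.442 and 0.938), named after their values were seen. Of the 14, 3 were higher and 0 lower, where 2.39% and 1.56% of all genes were called. The 3 were Chil3, a chitinase-like protein of alternatively activated macrophages (2.11 ± 0.38 SE, adjusted p = 0.0248), Cd63, a tetraspanin of granules and lysosomes (1.23 ± 0.18 SE, adjusted p = 0.012), and Itgax, which encodes CD11c (1.06 ± 0.22 SE, adjusted p = 0.038). Chil3 lost the call when any single array numbered 1 or 2 was omitted, Cd63 without PBS replicate 1 or either replicate 2, and Itgax when HDM replicate 2 or any single PBS array was omitted (adjusted p of up to 0.11, 0.067 and 0.132). Itgax also lost it with all probe sets tested together. With the block 4 of the 14 were higher (5.95% over all genes), the added gene being Csf1r, the receptor for macrophage colony-stimulating factor (0.52 ± 0.25 SE, adjusted p = 0.34, and 0.0488 with the block). The gate genes Adgre1 and Itgam differed by 0.39 ± 0.24 and −0.015 ± 0.23 SE (adjusted p = 0.469 and 0.984). The table gives no detection call, so no marker can be read as at 0. The part of these markers in the differences of the 10 genes was not tested.

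**Figure D4:**
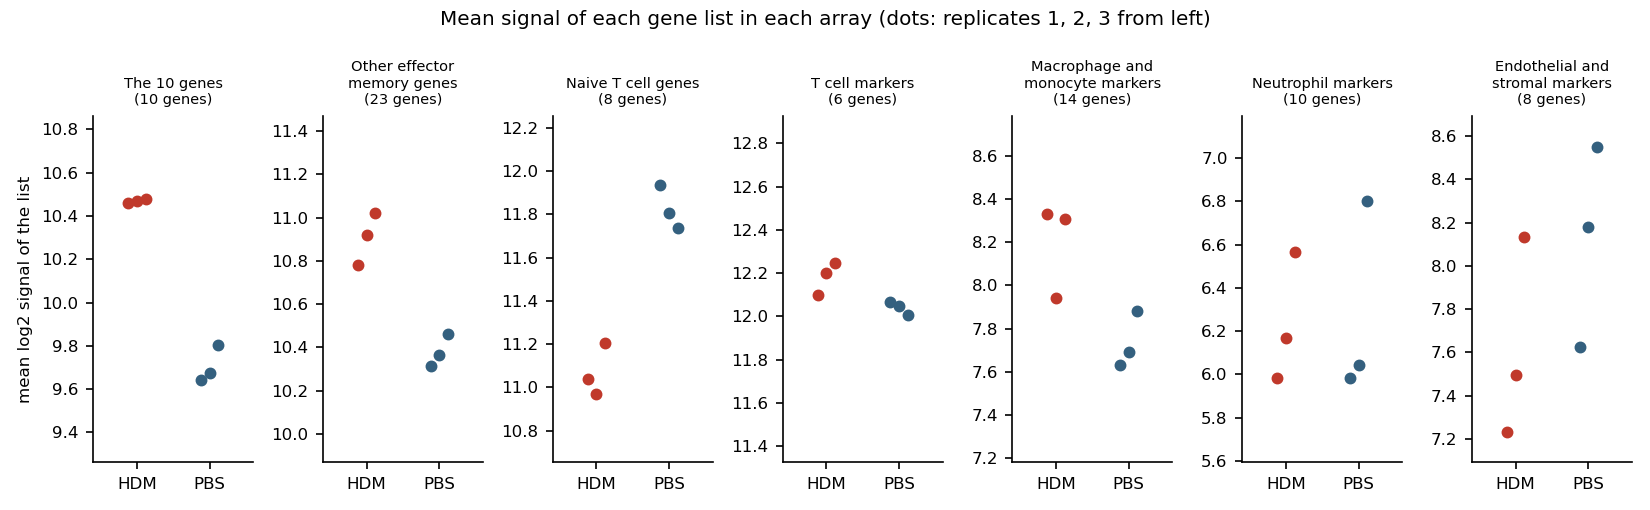
Mean log2 signal of each gene list in each array (y axis, a span of equal height in every panel), HDM left of PBS; dots are replicates 1, 2 and 3 from left. The 10 genes lie between 10.46 and 10.48 in HDM arrays and between 9.64 and 9.80 in PBS arrays, and the macrophage and monocyte markers between 7.94 and 8.33 in HDM arrays and between 7.63 and 7.88 in PBS arrays. The mean of the macrophage and monocyte markers includes Chil3, the largest log2 difference of that list (2.11).

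Markers of other cells gave 1 call or none per list without the block, where 2.39% of all genes were called higher and 1.56% lower. Of 10 neutrophil markers, which include S100a8 and S100a9, 0 were called by limma and 0 had an unadjusted p below 0.05, with a mean log2 signal of 5.98 to 6.57 in HDM arrays and 5.98 to 6.80 in PBS arrays. The largest differences were those of Retnlg, a resistin-like protein of neutrophils (0.35 ± 0.45 SE, adjusted p = 0.766, and from 0.013 to 0.91 when single arrays were left out), and S100a8 above. Of 7 markers of eosinophils, mast cells and basophils only Ccr3, the eotaxin receptor, was higher (1.90 ± 0.18 SE, adjusted p = 0.00274). The list's mean log2 signal was 5.56 to 5.71 in HDM arrays and 5.29 to 5.37 in PBS arrays, without overlap. That mean includes Ccr3, the largest difference of the list, and the median log2 difference was 0.12. In 2 of the 7 all 3 HDM values lay below all 3 PBS values, as in 11.8% of all genes. They were Epx and Fcer1a (−0.28 and −0.083, adjusted p = 0.217 and 0.594), named after their values were seen. Of 7 epithelial markers Cdh1, which encodes E-cadherin, was higher (0.82 ± 0.15 SE, adjusted p = 0.0292), and it lost the call when any single array except HDM replicate 3 was omitted (adjusted p of up to 0.113) and with averaged or all probe sets. With the block Sftpc, a surfactant protein gene of alveolar cells, was lower (−0.40 ± 0.52 SE, adjusted p = 0.777, and 0.0177 with the block). The epithelial list's mean log2 signal was 8.11 to 8.75 in HDM arrays and 7.80 to 8.60 in PBS arrays. That mean includes Sftpc and Scgb1a1, the latter named after its values were seen. Both were bright in both groups, with means of 10.08 and 11.84 in HDM arrays and 10.47 and 11.64 in PBS arrays (percentiles 92.65 and 98.92 of all genes). Of 8 endothelial and stromal markers Pecam1 was lower (−0.51 ± 0.082 SE, adjusted p = 0.0169, and up to 0.0961 when any single array numbered 1 or 2 was omitted), with a mean log2 signal of 7.23 to 8.14 in HDM arrays and 7.63 to 8.55 in PBS arrays. With the block 5 of the 8 were lower (6.01% over all genes), the added genes being Cdh5, Kdr, Pdgfra and Dcn, with log2 differences of −0.90, −0.57, −0.76 and −0.90 and block adjusted p between 0.00353 and 0.0235, named after their values were seen. B cell, dendritic cell and innate lymphoid or NK markers gave 0 calls by limma among 5, 5 and 4 measured and 0 at an unadjusted p below 0.05. Their leading genes were Ms4a1 (0.45) and Cd79b (0.33), Cd209a (0.16) and Siglech (0.090), and Kit (−0.47) and Ncr1 (−0.13), as log2 differences that did not pass, though Kit was lower with the block (adjusted p = 0.0455). When single arrays were left out Ms4a1 ran from 0.074 to 0.81 and Cd79b from 0.071 to 0.63. The part of these markers was not tested.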

How the data were processed

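RNA of sorted lung CD4 T cells was hybridised to 6 arrays, 3 HDM and 3 PBS. The deposited table holds log2 signals per probe set that the authors made with RMA, per the submitters' processing notes (no version named). RMA corrects background, quantile-normalizes arrays and summarises probes, and thereby hides any change in total RNA per cell. Array medians were 6.57 to 6.64, any 2 arrays shared at most 5 identical values, and the number of arrays limits the precision.

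Of 33960 probe sets, 23521 carried 1 gene symbol in the platform's annotation, 1814 several and 8625 none here. They gave 22180 genes, read at the brightest probe set. Differences were fitted over all of them in R 4.3.3 with limma 3.58.1 (lmFit, eBayes with an intensity trend), two-sided, with Benjamini-Hochberg adjustment and a threshold of 0.05. SEs are limma's moderated ones. The fit was tested on simulated data.

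The genes, the lists and the tests were chosen with earlier results of these data known. Beside the 10 genes, the text names up to 6 genes of each list that passed, or the 2 with the largest difference where none passed. It also names the 5 nearest in pattern among the genes searched. The labels do not say what replicate numbers stand for. Over genes, the deviations from the group mean in arrays of the same number correlated at 0.43, 0.17 and 0.53, each above the minimum of 0.1 used for treating numbers as pairs, so the fit with the number as a block is given where it changes a call. Alternatives were 2 filters on dim genes, other normalizations, variance models, array weights, probe set rules, thresholds, the block and leaving out each array.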

Additional observations from a re-analysis of the deposited data

How the results depend on the processing

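The 10 genes kept their direction in all 18 planned settings, and S100a4, S100a6, Lgals1 and Cd44 their call at the 0.05 threshold. The count called higher was 4 at an adjusted p below 0.01, 8 below 0.1, 8 with array weights and 9 with the replicate block. It was 4 to 8 when single arrays were left out. Without the arrays numbered 3, a setting chosen after seeing the data, it was 9, with Anxa1 and Anxa2 passing limma's test (adjusted p = 0.00402 and 0.01655). The count lower stayed 0. The count of other family genes called higher was 2 with array weights, 4 with the replicate block, 1 to 2 without single arrays, and 2 without the arrays numbered 3. Over all genes, 531 were higher and 345 lower. These became 914 and 923 with array weights, 352 and 191 with all probe sets tested together, 1319 and 1334 with the replicate block, 172 and 55 at an adjusted p below 0.01, 819 and 716 below 0.1, and 1250 and 1326 without the arrays numbered 3. They were 177 to 845 and 41 to 722 without single arrays, and 557 were lower with genes below the median left out. Anxa1 passed with array weights too (0.77, adjusted p = 0.0176). Among genes that did not pass, the sign turned for Siglech with array weights (−0.017) and without the arrays numbered 3 (−0.12), and without single arrays it ran from −0.20 to 0.31 for Siglech, −0.68 to 0.0083 for S100a8 and −0.58 to 0.16 for Ncr1. The causes were not tested. Repeated normalization, median centring and other variance models changed no call of the 10 genes. The 3 arrays per group limit what can be called, and no array was checked against its background signal.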
